A study of Rattus norvegicus with 6 samples.

Results

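The genes described here are 34 genes that mark T cells and natural killer (NK) cells: 12 of the T cell receptor complex and its proximal signalling, 12 of helper, regulatory, costimulatory or homing function, and 10 of cytotoxic or NK function. They were chosen by name, and a probe with the listed gene name was present for 32 of the 34, among 35069 named genes and 41012 probes on the array. Cd27 and Klrb1 had no probe of that name. The study measured synovial tissue from the hind-leg ankle joints of male rats aged 8 weeks, all of which carried adjuvant arthritis induced by 0.1 ml of Freund's complete adjuvant, given intraperitoneally once a day over 18 days and scored by an arthritis index. Of the 2 groups of 3 samples, the arthritis group received saline and the triptolide group received triptolide at 0.4 mg/kg, daily for 14 days in both. Strain is not given in the sources used here, no healthy group was analysed here, and triptolide is a diterpenoid from the plant Tripterygium wilfordii that blocks transcription. The labels number the replicates without saying that each is a separate animal, so a p-value here reflects the spread among the samples of a group, and that spread may be technical.

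T cells recognise antigen through a receptor whose signal is passed on by the CD3 chains and the CD247 zeta chain to the kinases LCK and ZAP70 and the adaptor LAT, with CD4 or CD8 as co-receptor. Helper and regulatory T cells act through cytokines, costimulatory receptors and inhibitory receptors, whereas cytotoxic T cells and NK cells kill target cells by releasing perforin and granzymes. In adjuvant arthritis of the rat, T cells are required for disease, and the inflamed synovium also holds macrophages and fibroblasts, so RNA from T cells and NK cells is a share of a mixture.

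Levels are log2 of the background-subtracted intensity of a probe minus the log2 75th percentile of all non-control spots on the same array, so 0 is that percentile. A level of one probe was not set against that of another, since probes differ in brightness. In bulk tissue, fewer cells of a type and less RNA per cell cannot be told apart. A probe entered the test if 3 or more of the 6 arrays had it well above background, which held for 29 of the 32 genes. Cd28, the main costimulatory receptor of T cells, Tbx21, the transcription factor of type 1 helper cells, and Ncr1, an activating receptor of NK cells, were well above background on 0 of 6 arrays and were not tested.

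Each of these 36 probes is 60 bases long with 35% to 55% GC. The probes of the genes on which the results turn most are shown to make clear what was hybridised: Cd3e as the reference for the T cell receptor complex, the neighbouring granzyme genes Gzma and Gzmk, whose values lay on opposite sides, and Ifng, the gene with the widest spread. On rat build rn4 the array places them at chr8:47950313-47950372 on the minus strand for Cd3e, chr2:44490165-44490224 on the minus strand for Gzma, chr2:44589378-44589437 on the minus strand for Gzmk and chr7:57625663-57625722 on the plus strand for Ifng.
Cd3e probe: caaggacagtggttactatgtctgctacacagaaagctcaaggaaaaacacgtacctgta
Gzma probe: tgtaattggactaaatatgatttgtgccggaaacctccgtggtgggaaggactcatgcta
Gzmk probe: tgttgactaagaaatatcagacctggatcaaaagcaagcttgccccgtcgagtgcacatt
Ifng probe: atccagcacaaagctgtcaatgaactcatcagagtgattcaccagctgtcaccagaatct

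None of the 29 tested genes differed between the groups after adjustment: 0 had an adjusted p under 0.05 in limma, with adjusted p of 0.994 to 0.999, and 0% of the 25771 tested probes did. At an unadjusted p under 0.05 in limma, 1 gene was higher with triptolide, Gzma, where 2% of all tested probes were, and 0 were lower, where 1.23% were. Gzma was also the 1 gene whose groups did not overlap with triptolide higher, taking the brightest probe of a gene, beside 4.77% of all probes, and 0 genes had groups that did not overlap with triptolide lower, beside 3.87%. Counted by probe, 3 of the 32 tested probes of these genes had groups that did not overlap, all with triptolide higher: that of Gzma and both dimmer probes of Il7r. The values of 21 genes were higher and of 8 lower with triptolide, with a median difference of 0.11 on the log2 scale, beside 53.9% of probes higher and a median of 0.02 over all tested probes. By role, 8 of 12 receptor and signalling genes, 8 of 9 helper and regulatory genes and 5 of 8 cytotoxic and NK genes had a higher value, with medians of 0.04, 0.23 and 0.23.

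**Figure D1:**
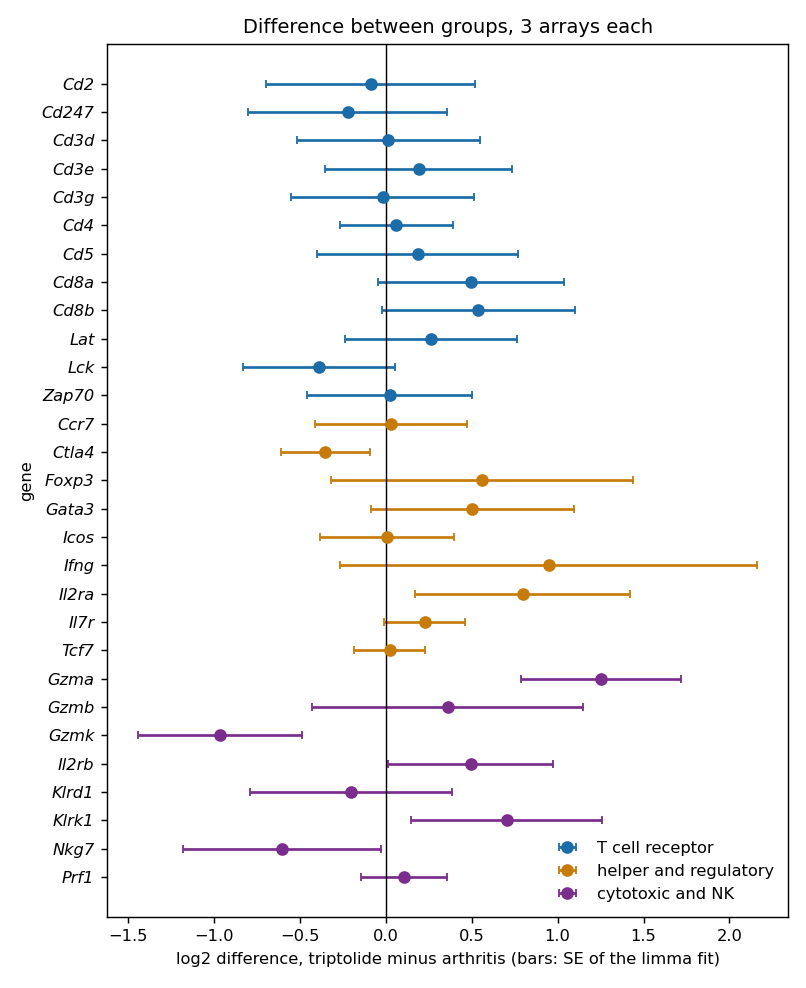
Log2 difference of each tested gene, triptolide minus arthritis, with the standard error of the limma fit as bars and 3 arrays in each group. The receptor and signalling genes (blue) lie between -0.39 and 0.54. The most distant points are Gzma at 1.25 and Gzmk at -0.96, both among the cytotoxic and NK genes (purple). Ifng, a helper and regulatory gene, follows at 0.95.

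The larger pattern in these genes ran across the arrays and not between the groups. In 22 of the 29 genes, arthritis 2 and triptolide 2 were the lowest arrays, which was so in 22.7% of all tested probes. In 28 of 29 genes the lowest array was one of these, beside 61.3% of all tested probes. Averaged over the 29 genes, the deviation from each gene's own mean was 0.14, -0.72 and 0.33 in arthritis 1 to 3 and 0.52, -0.77 and 0.50 in triptolide 1 to 3. Both groups thus held 1 array low in these genes. The pattern was most regular among the receptor and signalling genes, where 11 of 12 had both of these arrays lowest, beside 6 of 8 cytotoxic and NK genes and 5 of 9 helper and regulatory genes.

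**Figure D2:**
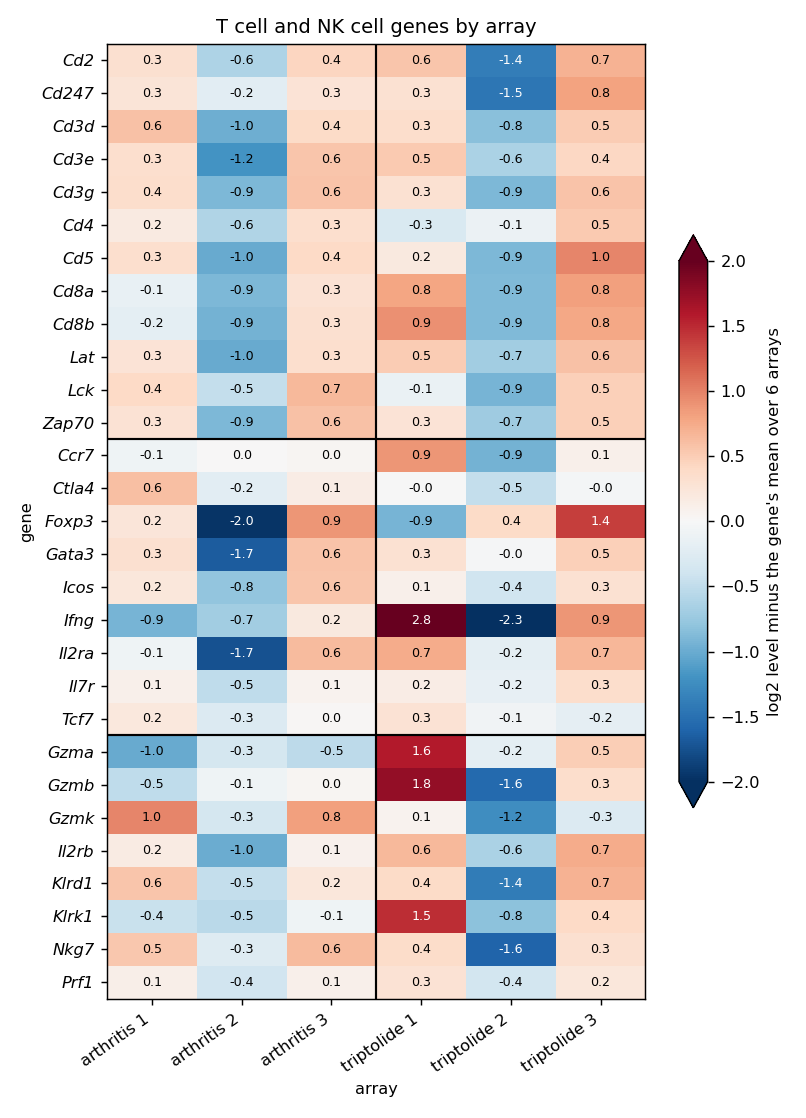
Log2 level of each tested gene minus its mean over the 6 arrays, as colour and number, with genes in rows by role (receptor and signalling, helper and regulatory, cytotoxic and NK) and arrays in columns; colours end at -2 and 2. The columns of arthritis 2 and triptolide 2 are blue through most rows, while Gzma is lowest in arthritis 1.

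The 3 CD3 chains, which are made by T cells and carry the signal of the antigen receptor into the cell, moved together over the arrays and had nearly equal group means. Cd3d had log2 levels of 3.097, 1.54 and 2.90 in arthritis 1 to 3 and 2.86, 1.69 and 3.03 in triptolide 1 to 3. Its means were 2.51 ± 0.85 and 2.53 ± 0.73 (SD, n = 3 each), a difference of 0.01 with a standard error of 0.53. Replicate 2 was the lowest array of each group, and the other arrays of both groups interleaved. Cd3g had levels of 2.68, 1.42 and 2.90 with arthritis and 2.64, 1.42 and 2.89 with triptolide, a difference of -0.02 (SE 0.53). For Cd3e the levels were -1.16, -2.70 and -0.95 against -0.99, -2.15 and -1.10, a difference of 0.19 (SE 0.54). In each of the 3 chains replicate 2 was more than 1 log2 unit below the other arrays of its group, which lay close to each other.

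The promoters of the CD3 genes are shown because these genes moved together and lie side by side on chromosome 8. In the RefSeq table (build GRCr8) the starts of Cd3d and Cd3g are 1601 bases apart on opposite strands, and those of Cd3e and Cd3d are 26251 bases apart. The 250 bases before each start were searched on both strands for AGGAAG, the core of many ETS factor sites, and TGTGGT, the core of RUNX factor sites, which can share an end base. Capitals mark a match.
Cd3d promoter, chr8:54185269-54185518, plus strand: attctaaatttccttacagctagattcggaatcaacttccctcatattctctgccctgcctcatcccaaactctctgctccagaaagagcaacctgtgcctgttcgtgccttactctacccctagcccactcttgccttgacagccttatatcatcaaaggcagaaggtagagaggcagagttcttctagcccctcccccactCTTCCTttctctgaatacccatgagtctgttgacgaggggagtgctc
Cd3e promoter, chr8:54211771-54212020, minus strand: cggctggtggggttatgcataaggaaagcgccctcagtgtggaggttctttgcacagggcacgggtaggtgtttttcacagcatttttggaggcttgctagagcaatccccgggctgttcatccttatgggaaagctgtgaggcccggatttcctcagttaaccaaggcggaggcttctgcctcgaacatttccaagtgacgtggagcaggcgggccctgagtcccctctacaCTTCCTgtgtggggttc
Cd3g promoter, chr8:54183919-54184168, minus strand: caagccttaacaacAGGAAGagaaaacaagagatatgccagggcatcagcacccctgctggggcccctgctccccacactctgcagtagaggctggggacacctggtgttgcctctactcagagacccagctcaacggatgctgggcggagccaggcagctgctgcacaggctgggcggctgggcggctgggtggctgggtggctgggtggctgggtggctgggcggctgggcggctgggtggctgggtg
AGGAAG or its reverse complement was present in all of these 3 promoters and in 15 of the 26 genes with an entry in the table, beside 29.5% of all 33469 promoters there. TGTGGT or its reverse complement was present in 11 of the 26, beside 14.5%. The other hexamers searched were TATAAA, in 7 of 26 beside 12.9%, AGATAA, in 1 beside 10.3%, CACCTG, in 9 beside 15.9%, and CTTTGA, in 5 beside 13.9%. A match describes the letters in this window only.

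The kinase and adaptor genes below the receptor followed the CD3 chains. Zap70, the kinase that binds the phosphorylated chains, had levels of 1.65, 0.46 and 1.94 with arthritis and 1.64, 0.65 and 1.83 with triptolide, a difference of 0.02 (SE 0.48). Lat, the adaptor on which the signalling complex assembles, had 0.07, -1.20 and 0.15 against 0.31, -0.90 and 0.39, a difference of 0.26 (SE 0.50). Lck, the kinase that acts first, had -2.39, -3.26 and -2.14 against -2.92, -3.72 and -2.31, a difference of -0.39 (SE 0.44). Within both groups replicate 2 was the lowest array in all 3 genes, and the groups overlapped. Cd247, the zeta chain, was dim, with 2 arthritis arrays and 1 triptolide array well above background, and its difference was -0.22 (SE 0.58). Cd2, an adhesion receptor of T and NK cells, differed by -0.09 (SE 0.61), and Cd5, an inhibitory receptor of T cells, by 0.19 (SE 0.58).

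Both chains of the CD8 co-receptor, which binds MHC class I and is carried by cytotoxic T cells among others, had higher values with triptolide except in its second replicate. Cd8a had levels of -0.50, -1.24 and -0.05 with arthritis and 0.44, -1.23 and 0.48 with triptolide, a difference of 0.50 (SE 0.54). Cd8b had 1.41, 0.66 and 1.93 against 2.52, 0.72 and 2.38, a difference of 0.54 (SE 0.56). In both chains triptolide 1 and 3 were above every arthritis array, and triptolide 2 was level with arthritis 2. Cd4, the co-receptor for MHC class II, which rat macrophages also make, had -0.87, -1.65 and -0.72 against -1.35, -1.17 and -0.53, a difference of 0.06 (SE 0.33). Its order differed from that of the CD3 chains, since triptolide 1 was lower than triptolide 2. The 12 receptor and signalling genes spanned differences of -0.39 to 0.54, each smaller than its own standard error.

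Among the helper and regulatory genes, Ifng, the cytokine of type 1 helper, cytotoxic and NK cells, had the widest range. Its levels were -4.58, -4.34 and -3.44 with arthritis and -0.85, -5.90 and -2.76 with triptolide, a range of 5.05 over the arrays from 10 spots of the probe on each. Triptolide 1 was highest and triptolide 2 lowest of all 6, and the difference was 0.95 with a standard error of 1.21. The SD was 0.60 with arthritis and 2.55 with triptolide, and 5 of the 6 arrays were well above background.

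Genes of regulatory T cells were dim and did not separate the groups. Foxp3, the transcription factor that defines regulatory T cells, had levels of -4.79, -6.98 and -4.16 with arthritis and -5.96, -4.65 and -3.64 with triptolide. It was well above background on 2 and 1 of 3 arrays, and its difference was 0.56 (SE 0.88). Il2ra, the high-affinity chain of the interleukin-2 receptor, which regulatory and activated T cells carry, had -4.56, -6.22 and -3.84 against -3.74, -4.67 and -3.82, a difference of 0.80 (SE 0.62). The lowest of these levels was again arthritis 2, and arthritis 1 and 3 lay among the triptolide arrays. The other Il2ra probe was well above background on 0 arthritis arrays and 1 triptolide array and was not tested. Ctla4, the inhibitory receptor that competes with CD28, had -3.28, -4.09 and -3.73 against -3.89, -4.35 and -3.91, a difference of -0.35 (SE 0.26), with arthritis 2 inside the triptolide range.

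The remaining helper, costimulatory and homing genes had small differences. Gata3, the transcription factor of type 2 helper cells, had a difference of 0.50 (SE 0.59) that rested on arthritis 2 at -5.64, since the other 5 arrays lay between -4.02 and -3.41. Icos, a costimulatory receptor of activated T cells, differed by 0.01 (SE 0.39) at its brighter probe and by 0.21 (SE 0.46) at the dimmer one. Il7r, the interleukin-7 receptor of resting and memory T cells, had 3 probes with differences of 0.23 (SE 0.24), 0.52 (SE 0.27) and 0.46 (SE 0.28), and arthritis 2 was the lowest array at each. The groups overlapped at the brightest of these probes and did not at the other ones. Ccr7, the receptor that guides T cells to lymph nodes, differed by 0.03 (SE 0.44), with its highest level of -2.99 in triptolide 1 and its lowest of -4.81 in triptolide 2. Tcf7, a transcription factor of naive and memory T cells, had the smallest range of these genes, 0.56 over 6 arrays, and differed by 0.02 (SE 0.20).

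The granzymes did not move as 1 group. Gzma, a tryptase of cytotoxic granules, had levels of -1.84, -1.17 and -1.34 with arthritis and 0.77, -1.02 and -0.34 with triptolide. Every triptolide array was above every arthritis array, by as little as 0.15 between arthritis 2 and triptolide 2. The means were -1.45 ± 0.35 and -0.20 ± 0.90 (SD, n = 3 each), a difference of 1.25 with a standard error of 0.46, or 2.38-fold, at an unadjusted limma p of 0.0341 and an adjusted p of 0.994. The unadjusted p was 0.05 or more in 5 of the 6 fits that left out 1 array, at 0.0509 to 0.0998, and 0.051 under normexp background correction, where the groups overlapped. The difference was 0.77 without triptolide 1 and 2.22 on slide 1, where triptolide 1 is the single treated array. Gzma was the 1 gene of the 29 whose lowest array was neither arthritis 2 nor triptolide 2.

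Gzmk, another granzyme of tryptase type, had its values on the other side. Its levels were 0.27, -1.05 and 0.12 with arthritis and -0.63, -1.95 and -0.98 with triptolide. Replicate 2 was the lowest array of each group, and arthritis 2 lay below triptolide 1 and 3. The means were -0.22 ± 0.72 and -1.18 ± 0.69 (SD, n = 3 each), a difference of -0.96 with a standard error of 0.48, or 0.51-fold, which did not pass the test (limma unadjusted p 0.0876, adjusted p 0.994). It was -1.38 without arthritis 2 (limma unadjusted p 0.0199), -0.58 without triptolide 2 and -0.41 on slide 1. Gzmb, the granzyme that cleaves caspases, had -2.31, -1.88 and -1.76 against -0.05, -3.36 and -1.45, a difference of 0.36 (SE 0.79). Its highest and lowest arrays were both triptolide arrays.

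The promoters of Gzma and Gzmk are shown because these neighbouring genes, whose starts lie 96319 bases apart on the same strand of chromosome 2 (RefSeq, GRCr8), had differences of opposite sign. Capitals mark the RUNX hexamer TGTGGT or its reverse complement, and AGGAAG was in neither window.
Gzma promoter, chr2:46485697-46485946, minus strand: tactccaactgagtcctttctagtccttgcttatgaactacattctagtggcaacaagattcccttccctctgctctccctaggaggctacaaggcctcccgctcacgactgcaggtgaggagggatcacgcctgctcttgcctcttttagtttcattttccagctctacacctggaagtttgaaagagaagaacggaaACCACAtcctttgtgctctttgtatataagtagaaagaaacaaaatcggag
Gzmk promoter, chr2:46582016-46582265, minus strand: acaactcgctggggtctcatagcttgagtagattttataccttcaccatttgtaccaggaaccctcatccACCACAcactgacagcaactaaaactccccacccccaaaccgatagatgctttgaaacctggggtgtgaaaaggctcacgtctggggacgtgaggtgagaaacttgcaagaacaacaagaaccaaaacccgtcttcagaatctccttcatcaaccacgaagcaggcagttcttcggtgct
Each window held 1 RUNX hexamer, and CACCTG or its reverse complement was in that of Gzma but not of Gzmk, while TATAAA and CTTTGA were in that of Gzmk but not of Gzma.

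No receptor gene of NK cells and cytotoxic T cells passed the test. Klrk1, which encodes the activating receptor NKG2D, had levels of -2.10, -2.19 and -1.74 with arthritis and -0.19, -2.47 and -1.26 with triptolide, a difference of 0.70 (SE 0.55). Klrd1, which encodes CD94, the partner of the NKG2 receptors, had -1.70, -2.72 and -2.02 against -1.86, -3.64 and -1.55, a difference of -0.20 (SE 0.59). Il2rb, the receptor chain for interleukin-2 and interleukin-15, had -0.40, -1.56 and -0.47 against 0.08, -1.20 and 0.17, a difference of 0.49 (SE 0.48). For Klrk1 and Il2rb, triptolide 1 and 3 were above every arthritis array and triptolide 2 was not. Nkg7, a granule membrane protein, had 1.88, 1.10 and 1.98 against 1.72, -0.24 and 1.67, a difference of -0.60 (SE 0.58) that rested on triptolide 2. Prf1, which encodes the pore-forming perforin, had -0.41, -0.91 and -0.44 against -0.24, -0.90 and -0.30, a difference of 0.11 (SE 0.25).

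**Figure D3:**
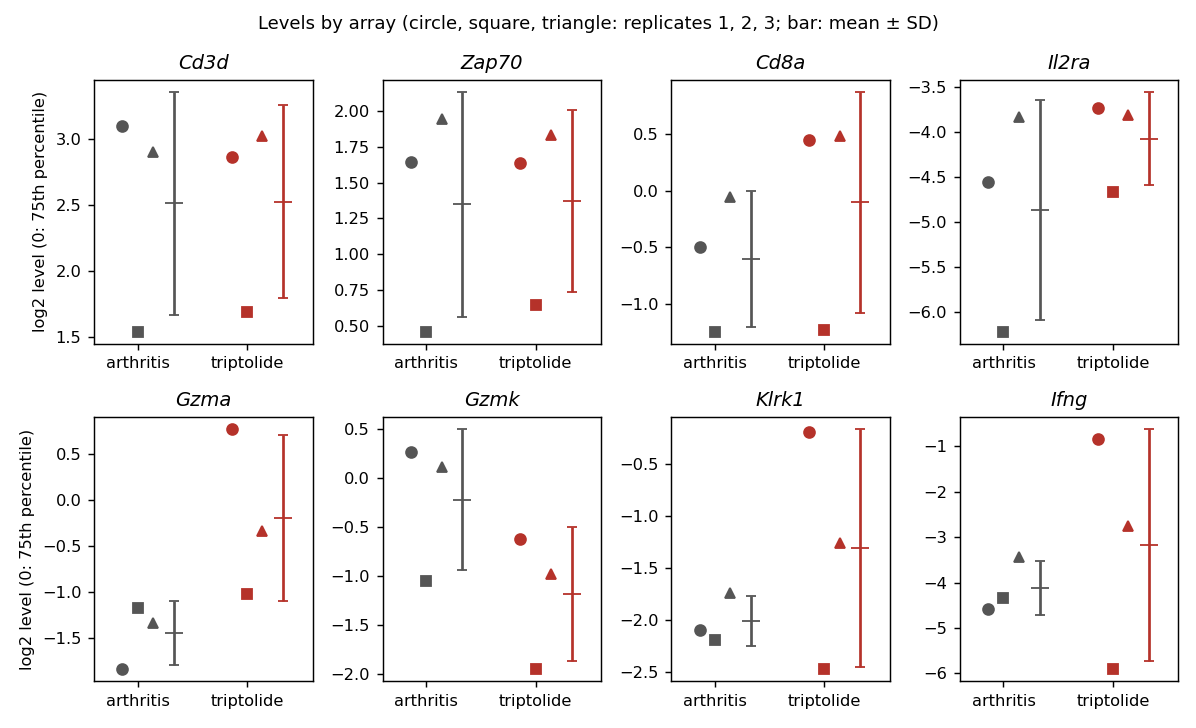
Log2 levels (0 is the array's 75th percentile) of 8 genes in each array, with circles, squares and triangles for replicates 1, 2 and 3 and bars for the mean ± SD of 3 arrays; each panel has its own axis. Squares are lowest in both groups for Cd3d, Zap70, Cd8a, Il2ra and Gzmk, the Gzma groups do not overlap, and the triptolide arrays of Ifng run from -5.90 to -0.85.

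Because the T cell receptor genes moved together over the arrays, each of the other 26 genes was also expressed relative to the mean level of Cd3d, Cd3e and Cd3g on the same array. That mean was 1.54, 0.09 and 1.62 in arthritis 1 to 3 and 1.50, 0.32 and 1.61 in triptolide 1 to 3. This measure was chosen after the data were seen. For 19 of the 26 genes the SD over the arrays was smaller on the relative scale than in level, as for Zap70, from 0.64 to 0.11, Lat, from 0.68 to 0.13, and Cd5, from 0.79 to 0.25. It was larger for Cd4, Gzma, Prf1, Ccr7, Ctla4, Il7r and Tcf7, the last from 0.22 to 0.60. The Cd5 probe was not well above background on arthritis 2 or triptolide 2, so its fall in SD rests in part on values near background. Since the reference was picked because genes moved with it, the SD of those genes was bound to fall, and the count is a description only.

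Relative to the CD3 chains, Gzmk was lower in every triptolide array. Its relative levels were -1.27, -1.14 and -1.50 with arthritis and -2.13, -2.27 and -2.58 with triptolide. The means were -1.30 ± 0.18 and -2.33 ± 0.23 (SD, n = 3 each), a difference of -1.03, and the gap between the groups was wider than the range within either. Nkg7 was the other gene whose groups did not overlap with triptolide lower, at 0.35, 1.01 and 0.36 against 0.22, -0.56 and 0.06, a difference of -0.67. These are 2 of 26 genes, beside 0.31% of all tested probes on the same measure, a share that is not a like comparison, as explained below.

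On the same scale 3 genes had groups that did not overlap with triptolide higher, beside 0.353% of all tested probes. Il2rb had relative levels of -1.94, -1.65 and -2.09 with arthritis and -1.42, -1.52 and -1.44 with triptolide, a difference of 0.43. Il2ra had -6.10, -6.31 and -5.46 against -5.24, -4.99 and -5.43, a difference of 0.73 with a gap of 0.03 between arthritis 3 and triptolide 3. Its probe was not well above background on arthritis 2 or triptolide 2, so this separation rests in part on values near background. Under normexp background correction the difference in Il2ra level, not relative to CD3, was -0.0361. Lat had -1.46, -1.29 and -1.47 against -1.19, -1.22 and -1.21, a difference of 0.20. For each of these 5 genes the two-sided exact permutation p was 0.1, the smallest that 3 against 3 arrays can give. Gzma did not separate on this scale, at -3.37, -1.26 and -2.96 against -0.74, -1.34 and -1.94, since arthritis 2 was above triptolide 2 and 3. The shares over all probes are not a like comparison, because the subtraction adds the spread of the CD3 chains to a probe that does not follow them.

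With the CD3 mean as a covariate in limma in place of the subtraction, Gzmk differed by -1.02 (SE 0.17) at an unadjusted p of 0.00177, with an adjusted p of 0.801. Il2rb differed by 0.44 (unadjusted limma p 0.029) and Il2ra by 0.73 (unadjusted limma p 0.0427). The value for Il2ra has the same limit, since its probe was not well above background on arthritis 2 or triptolide 2. In this fit Nkg7 differed by -0.67 (unadjusted limma p 0.0834) and Lat by 0.21 (unadjusted limma p 0.125). The 3 of 26 genes at an unadjusted limma p under 0.05 stood beside 5.84% of all tested probes. That share is not a like comparison either, since the CD3 mean was picked because genes of this list moved with it. After adjustment, 0 of the 26 genes and 0% of all probes passed.

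**Figure D4:**
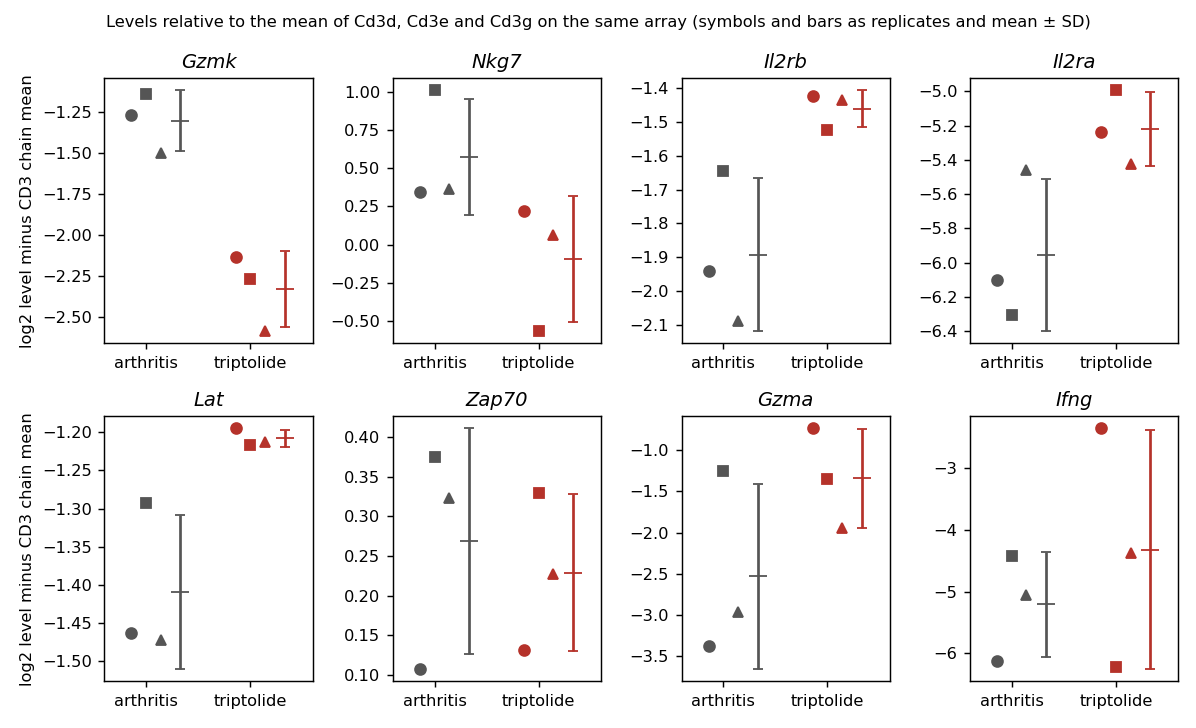
Log2 level of 8 genes minus the mean level of Cd3d, Cd3e and Cd3g on the same array, with circles, squares and triangles for replicates 1, 2 and 3 and bars for the mean ± SD of 3 arrays; each panel has its own axis. Groups do not overlap for Gzmk and Nkg7 (triptolide lower) or for Il2rb, Il2ra and Lat (triptolide higher), and they overlap for Zap70, Gzma and Ifng.

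The arrays low in T and NK cell genes also stood apart in markers of other cells. Macrophage markers, 14 of 15 tested, had mean deviations of 0.02, -0.42 and 0.25 in arthritis 1 to 3 and 0.27, -0.54 and 0.42 in triptolide 1 to 3, with summed linear levels (the 75th percentile being 1) of 843.1 to 1318 and 677.4 to 1477, and 13 of the 14 were lowest in arthritis 2 and triptolide 2. Endothelial markers, 11 of 11 tested, were all highest in triptolide 2, with a summed level of 111.1 there, beside 42.82 and 48.19 in the other triptolide arrays and 54.25 to 59.97 with arthritis. Skeletal muscle markers, 18 of 19 tested, had a summed linear level of 7082 in arthritis 2, beside 5.285 and 5.352 in the other arthritis arrays and 4.857 to 123.9 with triptolide. Nerve and Schwann cell markers, 8 of 10 tested, summed to 261.5 in triptolide 2, beside 56.38 and 58.81 in the other triptolide arrays and 56.98 to 93.95 with arthritis. Of B cell and plasma cell markers only 4 of 12 were tested, with sums of 0.5143 to 1.191 with arthritis and 0.7626 to 2.224 with triptolide, while the defining Ms4a1 and Cd79a were well above background on 0 arrays. Neutrophil markers, 7 of 13 tested, had mean deviations of -0.40, -0.49 and 0.22 with arthritis and 0.66, -0.26 and 0.27 with triptolide, and the 14 tested fibroblast markers had 0.39, -0.40 and 0.48 against -0.01, -0.58 and 0.12. Adipocyte markers, 8 of 10 tested, summed to 110.7 to 245.1 with arthritis and 131.1 to 187.9 with triptolide, and erythroid markers, 5 of 9 tested, to 3.284 to 8.545 and 7.779 to 13.95. The part of other cell types in the values of the T and NK cell genes was not tested beyond the fits given here. Triptolide 1 shared slide 1 (scan 1) with the 3 arthritis arrays, while triptolide 2 and 3 were on slide 2 (scan 2), so slide and group largely cannot be told apart.

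**Figure D5:**
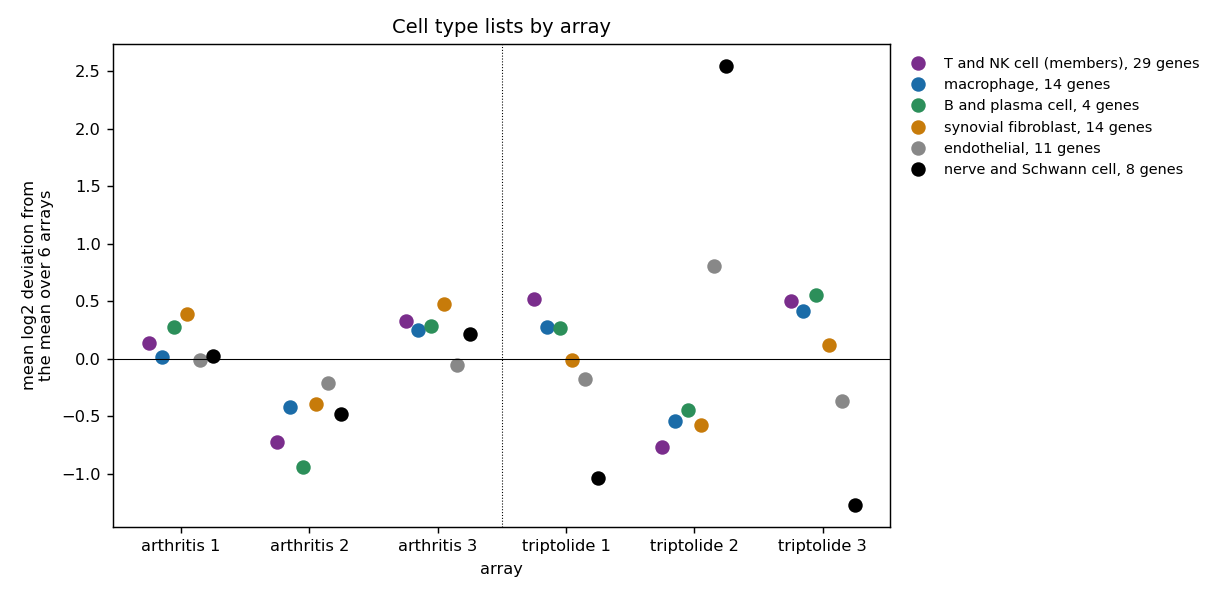
Mean over genes of the log2 deviation from each gene's mean over 6 arrays, for 6 lists of cell type genes in each array, with the dotted line between the groups and points of an array set side by side. The T and NK cell genes (purple) are at -0.72 in arthritis 2 and -0.77 in triptolide 2 and between 0.14 and 0.52 elsewhere, the macrophage genes (blue) are low in the same arrays, and the nerve and Schwann cell genes (black) are high in triptolide 2.

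Leaving out the arrays low in these genes, which also stood apart in muscle, nerve or endothelial markers, left 2 arrays in each group. Since these arrays were picked in part because the genes counted are low in them, the values that follow are a description and no independent test. With arthritis 1 and 3 against triptolide 1 and 3, 6 genes were higher at an unadjusted limma p under 0.05, Cd8a, Cd8b, Gzma, Il2rb, Klrk1 and Ifng, and 1 was lower, Gzmk. These 7 of 29 genes compare with 11.2% of all tested probes, and the 17 whose groups did not overlap, 14 higher and 3 lower, with 45.1%. Gzma differed by 1.81 (SE 0.43), Klrk1 by 1.19 (SE 0.40), Cd8a by 0.74 (SE 0.19), Cd8b by 0.78 (SE 0.22) and Gzmk by -0.995 (SE 0.17). None of the 29 had an adjusted limma p under 0.05 here, and 0.0931% of all probes did. The CD3 chains differed by -0.05 for Cd3d, 0.01 for Cd3e and -0.03 for Cd3g on these 4 arrays.

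Without triptolide 2 alone, picked in the same way, 6 genes were higher at an unadjusted limma p under 0.05, Cd8a, Cd8b, Gzma, Gzmb, Klrk1 and Ifng. At that threshold 0 genes were lower, and 6.43% of all probes passed it in either direction. The groups did not overlap for 14 of the 29 genes, all with triptolide higher, beside 28% of all probes in either direction. After adjustment 0 genes and 0% of probes passed. The direction of most genes depended on which array was left out. The median difference of the 29 genes was -0.22 without arthritis 2, with 10 genes higher, and 0.51 without triptolide 2, with 26 higher. Gzma stayed higher and Gzmk lower in each of the settings tried, from 0.77 to 2.22 and from -1.38 to -0.41.

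Of 100 further genes of T and NK cells, 78 had a probe and 56 were tested, and 0 passed after adjustment. Their values were higher with triptolide in 34 and lower in 22, with a median difference of 0.17, and 37 of the 56 had arthritis 2 and triptolide 2 as the lowest arrays. At an unadjusted limma p under 0.05, 1 of the 56 was higher and 3 were lower, beside 2% and 1.23% of all tested probes, and 3 had groups that did not overlap in each direction, beside 4.77% and 3.87%. Ptprc, which encodes CD45 of all white blood cells, had levels of 2.25, 1.45 and 2.28 with arthritis and 2.65, 1.85 and 2.46 with triptolide, a difference of 0.32 (SE 0.32), with replicate 2 lowest in both groups.

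Among 23 tested surface and signalling genes, 18 had higher values, with a median of 0.23. Cd52, a small glycoprotein of lymphocytes and other white blood cells, had -1.29, -1.17 and -1.42 with arthritis and -0.68, -0.92 and -0.79 with triptolide, a difference of 0.50 (SE 0.15, unadjusted limma p 0.0155) with no overlap of the groups. Cd7, an early T and NK cell surface protein, differed by 0.79 (SE 0.36), and Il2rg, the common cytokine receptor chain, by 0.44 (SE 0.29). Among 16 helper, regulatory and checkpoint genes, 7 were higher and 9 lower, with a median of -0.07. Il1rl1, the interleukin-33 receptor, which mast cells also carry, had 1.06, 0.42 and 0.61 against -0.41, 0.15 and -0.15, a difference of -0.83 (SE 0.24, unadjusted limma p 0.0117). The checkpoint receptor Lag3 differed by -0.97 (SE 0.53), the follicular helper factor Bcl6 by -0.64 (SE 0.39), and Havcr2, which encodes TIM-3, by 0.85 (SE 0.57). Bcl6 was highest in arthritis 2, at 4.78 beside 3.31 and 3.72 in the other arthritis arrays and 2.98 to 3.52 with triptolide. Havcr2 was well above background on only 3 of 6 arrays.

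Among 17 further cytotoxic and NK genes, 9 were higher and 8 lower, with a median of 0.12. Nfil3, a transcription factor needed for NK cell development and also part of the circadian clock, had -0.43, 0.90 and -0.39 with arthritis and -1.36, -1.38 and -1.59 with triptolide, a difference of -1.47 (SE 0.38, unadjusted limma p 0.00713). Zbtb16, which encodes PLZF of NKT and innate-like T cells and is also a glucocorticoid-responsive gene of other tissues, differed by -1.70 (SE 0.51, unadjusted limma p 0.0146). Both had groups that did not overlap, with arthritis 2 highest, unlike the T cell receptor genes. Ccl5, a chemokine of cytotoxic T cells and NK cells, had 3.05, 1.80 and 2.83 against 2.08, 0.96 and 2.12, a difference of -0.84 (SE 0.45), and Klrc2, an activating NKG2 receptor, differed by -0.62 (SE 0.42). For Ccl5, as for Gzmk, arthritis 1 and 3 were the highest arrays, triptolide 2 was the lowest, and arthritis 2 lay below triptolide 1 and 3.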

How the data were processed

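Expression was measured on 1-colour Agilent arrays in 3 arthritis and 3 triptolide samples, from 0.5 ug of Cy3-labelled RNA. Per the file headers, the deposited values are linear intensity per spot, background-subtracted within an array but with no step between arrays. Those headers name Agilent Feature Extraction 10.7.3.1 and rat build rn4, whereas the submitters' processing notes name version 9.1. A deposited table holds log2 values for 167 rows and lists 0 probes of these genes; how the authors normalized it is not given in the sources used here.

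Control and outlier-flagged spots were left out, each array's log2 75th percentile was subtracted, and spots of a probe were averaged. Each array has 43379 non-control spots, of which 59.6% to 65.1% were well above background and 0 saturated; the number of arrays limits the precision. Probes well above background on at least 3 of 6 arrays (25771) were fitted in limma 3.58.1 (R 4.3.3) with Benjamini-Hochberg adjustment, and the code was tested on simulated data. The brightest tested probe stood for a gene.

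The genes and lists were chosen with earlier results of these data known. Genes named are all 34 members, up to 4 of each list of further genes by smallest unadjusted p, and Ptprc; some genes this rule covers are not reported here. Other cell types are given by summed level, with the defining B cell genes named. Alternatives covered background correction, scaling, filter, probe choice, slide, replicate number, left-out arrays, array weights, a muscle covariate and, added after the data were seen, the CD3 mean.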

Additional observations from a re-analysis of the deposited data

How the results depend on the processing

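No setting gave any of the 29 genes an adjusted p under 0.05. Leaving out 1 array at a time gave 0 to 6 genes at an unadjusted limma p under 0.05, 1 to 14 whose groups did not overlap, 10 to 26 with a higher value, a median difference of -0.22 to 0.51, and 616 to 1656 of all probes at an unadjusted p under 0.05. Genes at an unadjusted p under 0.05 numbered 0 under normexp, which also left 0 whose groups did not overlap, 4 with slide as a block, 5 on slide 1 only (15 without overlap, beside 52.6% of all probes), where both slide settings rest on triptolide 1 as the single treated array, 7 without both low arrays (17 without overlap), 7 with array weights and 3 with the CD3 mean as a covariate. Over all tested probes, deviations of same-numbered arrays from their group means correlated at -0.165, -0.131 and 0.001. Differently numbered arrays correlated at -0.102 (arthritis 3 with triptolide 1) to 0.157 (arthritis 1 with triptolide 2), so the highest value was not between same-numbered arrays. Such deviations cancel within each group of 3 arrays, so these correlations depend on each other. Whether replicate numbers pair the samples was not tested further. In 22 of the 29 genes both replicate 2 arrays were the lowest. The replicate block gave 2 genes in place of 1, Gzmk (unadjusted limma p 0.00224) and Il2rb (0.0254) in place of Gzma (0.0793). At an unadjusted limma p under 0.05, 1064 of the 25771 tested probes passed with the replicate block and 969 with slide as a block. Over all probes the count at an unadjusted p under 0.05, 833 in the fit as reported, was 1756 with no filter, 1295 on slide 1 only, 2879 without both low arrays, 4344 with array weights, 1629 with the muscle covariate and 1504 with the CD3 covariate, and 24 and 1 probes passed after adjustment without both low arrays and with array weights.

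The cause of the reversed differences was not tested. They were small under normexp, quantile normalization, the muscle covariate and the CD3 settings. With slide as a block, array weights or arrays left out, several were larger than the difference they reversed. Under normexp Cd3e was -0.0007, Ccr7 -0.0235, Foxp3 -0.0536, Icos -0.0542 and Il2ra -0.0361. Under quantile normalization Cd3d was -0.0075, Icos -0.0039 and Tcf7 -0.013. With slide as a block, as on slide 1 only, Cd2 was 0.51, Cd247 0.20, Cd3g 0.30, Cd4 -0.27, Klrd1 0.29, Nkg7 0.0689 and Foxp3 -0.65. Without both low arrays Cd2 was 0.25, Cd247 0.29, Cd3d -0.0533, Cd4 -0.14, Zap70 -0.0583, Klrd1 0.15, Foxp3 -0.33, Gata3 -0.06, Icos -0.18 and Tcf7 -0.0626. With array weights Cd2 was 0.26, Cd247 0.40, Cd3d -0.0051, Cd3g 0.0874, Klrd1 0.19, Icos -0.0535 and Tcf7 -0.23. The muscle covariate gave Cd3d -0.0049 and Icos -0.0106, the CD3 covariate Zap70 -0.033 and Icos -0.0353, and the level relative to CD3 Cd4 -0.0014, Zap70 -0.0397, Ccr7 -0.0305, Icos -0.0556 and Tcf7 -0.0402.

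With 1 array left out, the differences that reversed ranged from -0.45 to 0.58 for Cd2, -0.47 to 0.43 for Cd3g, -0.60 to 0.44 for Klrd1, -0.40 to 0.51 for Ccr7, -0.47 to 0.43 for Cd3d, -0.35 to 0.56 for Cd3e, -0.22 to 0.24 for Cd4, -0.27 to 0.68 for Cd5, -0.17 to 0.68 for Lat, -0.42 to 0.39 for Zap70, -0.0545 to 0.32 for Prf1, -0.28 to 1.16 for Foxp3, -0.20 to 0.92 for Gata3, -0.39 to 0.29 for Icos, -0.12 to 0.13 for Tcf7, -0.42 to 1.23 for Gzmb, -0.21 to 2.31 for Ifng, -0.68 to 0.45 for Cd247 and -0.94 to 0.0426 for Nkg7. Gzma, Gzmk, Cd8a, Cd8b, Lck, Ctla4, Il2rb, Klrk1 and Il7r kept their sign in the settings run. The deposited table gave no value for any of these genes. Cd247, Cd5, Foxp3, Gata3, Il2ra, Ccr7 and Ifng were not well above background on every array, which limits how well their low values are known.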
